A study of Homo sapiens with 27 samples.

Results

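The genes described here were 41 regulators of RNA splicing, chiefly heterogeneous nuclear ribonucleoproteins (hnRNPs), chosen by gene symbol, and all 41 had counts among the 18776 genes of the data. Their transcripts made up 491 of the 93530 transcripts listed in 6 libraries of RM82, an established cell line of Ewing sarcoma, a tumour of bone and soft tissue. Of the 6 libraries, 3 came from cells labelled as treated with SGC-CLK-1, an inhibitor of CLK splicing kinases, and 3 from cells given dimethylsulfoxide (DMSO) as the negative control. All 3 treated libraries carry the same treatment label, and the numbers in the titles were read as replicate numbers. Treatment lasted for a day. The sources used here give no dose, and both groups were the same cell line. The libraries were long-read cDNA sequenced on an Oxford Nanopore PromethION, and each value was a count of unique molecular identifiers (UMIs) per transcript. The total count was 666702, 362826 and 373004 in the treated libraries, given here and throughout in the order of their replicate numbers, and 416352, 523456 and 372876 in the controls. The members took between 1.29% and 1.49% of it. The study's reporting form speaks in general of independent experiments, but the labels do not tie these replicates to separate cultures, so the spread between them may be technical.

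Heterogeneous nuclear ribonucleoproteins coat newly made RNA in the nucleus and help to decide which exons and introns are kept. Many of them act against SR proteins, the splicing activators that CLK kinases phosphorylate. Several control their own mRNA by switching to forms that keep an intron or carry an early stop codon. Such forms often stay in the nucleus or are removed by nonsense-mediated decay (NMD), so the class of a transcript matters as well as the level of its gene. By the GENCODE annotation, 292 of the member transcripts were coding and held 78.1% of the members' counts. A further 102 were retained-intron transcripts with 11.4% of the counts, 39 were NMD transcripts with 6.96% and 58 were of other kinds with 3.52%.

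The member transcript with the smallest p was a form of PCBP2, a poly(C)-binding protein of the hnRNP E family, that keeps part of an intron. PCBP2 is on chromosome 12, plus strand, at 53452102 to 53481162 of GRCh38. A 511-base intron at 53467294 to 53467804 separates an exon of 73 bases from an exon of 39 bases. The retained-intron transcript ENST00000547987 (53459385 to 53467666, 4 exons, 681 bases) reads through the end of the 73-base exon and ends 373 bases into that intron. It is the only annotated PCBP2 transcript that holds these 373 bases. A second retained-intron transcript, ENST00000547048 (53467723 to 53479821, 3 exons), starts in the last 82 bases of the same intron and also keeps the next intron of 933 bases. The sequences below show where the exons end and the retained introns begin, on the plus strand of GRCh38, with exon bases in lower case and intron bases in capitals. The first covers chr12:53467264-53467353 and the second covers chr12:53467775-53467873, which holds the whole 39-base exon.
PCBP2 start of the 511-base intron: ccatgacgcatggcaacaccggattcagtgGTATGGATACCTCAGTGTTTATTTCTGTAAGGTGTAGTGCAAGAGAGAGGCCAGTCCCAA
PCBP2 exon between the introns: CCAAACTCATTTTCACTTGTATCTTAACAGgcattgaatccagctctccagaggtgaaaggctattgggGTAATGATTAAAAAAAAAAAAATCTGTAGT

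The same layout is annotated in TRA2A, a splicing activator related to the SR proteins and the member with the next smallest p in transcript usage. Its retained-intron transcript ENST00000494255 (chromosome 7, minus strand, 23507157 to 23531981, 5 exons) runs 263 bases past a 116-base exon into an intron of 1153 bases, and no other annotated TRA2A transcript holds those bases. The boundary at chr7:23507360-23507449 is shown on the minus strand, with the intron in capitals.
TRA2A start of the 1153-base intron: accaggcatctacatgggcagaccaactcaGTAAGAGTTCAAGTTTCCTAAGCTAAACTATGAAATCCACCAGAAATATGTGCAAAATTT

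Before the members were compared, the libraries were checked against their labels and each other. Of 12 genes listed as markers of Ewing sarcoma, 11 had counts and 7 had enough to be tested. The summed level of the 12 lay between 4380 and 5793 CPM (counts scaled to a common library total) in the 6 libraries. Caveolin 1 (CAV1) gave most of it, and NKX2-2, a homeobox gene used as a marker of this tumour, was at 0 in all 6. NR0B1 had 4, 2 and 4 counts with SGC-CLK-1 and 1, 6 and 3 with DMSO. LIPI had 6, 11 and 2 against 6, 6 and 0, and PRKCB and HOXD13 were also too low to be tested. The summed level therefore says little about these low markers. Of 8 plasma cell markers, 4 had counts, mostly from CD38, and SDC1, TNFRSF17, IRF4 and MZB1 were at 0. With SGC-CLK-1, XBP1 had 10, 1 and 0 counts, PRDM1 0, 0 and 4, and JCHAIN 0, 0 and 1, and each had 0 in every DMSO library. Of 8 T cell markers, 5 had counts, with PTPRC the highest in sum, and CD3D, CD3E and CD2 were at 0. CD3G had 2, 1 and 1 counts with SGC-CLK-1 and 6, 8 and 6 with DMSO, and its part in the results was not tested. The summed plasma cell level was 59.0 to 87.9 CPM and the summed T cell level 13.5 to 40.2 CPM. DMSO replicate 3 stood apart from the rest. On the first principal component, which held 35.6% of the variance, its score was 23.0, against 6.61 and 2.67 for the other DMSO libraries and -12.97 to -6.44 for the SGC-CLK-1 libraries. Values without single libraries are therefore given beside many of the results.

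As genes, no member passed the test between the treatments, and the share with a low unadjusted p was near that of all genes. Counts were summed over the transcripts of each gene, and 36 of the 41 members had enough counts to be tested. None of the 36 passed a Benjamini-Hochberg adjusted p of 0.05 in edgeR's quasi-likelihood test, against 15 of 6344 genes over the whole table, or 0.236% (0.11% higher and 0.126% lower). At an unadjusted p below 0.05 there were 5 members, or 13.9%, against 878 of all genes, or 13.8%. The 1 higher member was 2.78% of those tested and the 4 lower members 11.1%, against 6.89% and 6.95% of all genes. The libraries of both groups did not overlap for 6 members, or 16.7%, against 19.8% of all genes. In 2 of them SGC-CLK-1 was higher (5.56%, against 10.1% of all genes) and in 4 it was lower (11.1%, against 9.71%). The median log2 fold change of SGC-CLK-1 over DMSO was 0.027 over the members, with 19 above and 17 below 0, and -0.0004 over all genes. All 36 fold changes lay between -0.86 and 0.62 on the log2 scale, and 31 lay within 0.5 of 0. Their standard errors ran from 0.18 to 0.65. TIAL1, at -0.86 with a standard error of 0.26, did not pass, so changes well above the standard error could also go uncalled. When each library was left out in turn, 22 of the 36 kept the sign of their fold change in all 6 fits and 14 did not, and none passed in any of them. In bulk libraries less RNA per cell and fewer cells of a type cannot be told apart.

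**Figure D1:**
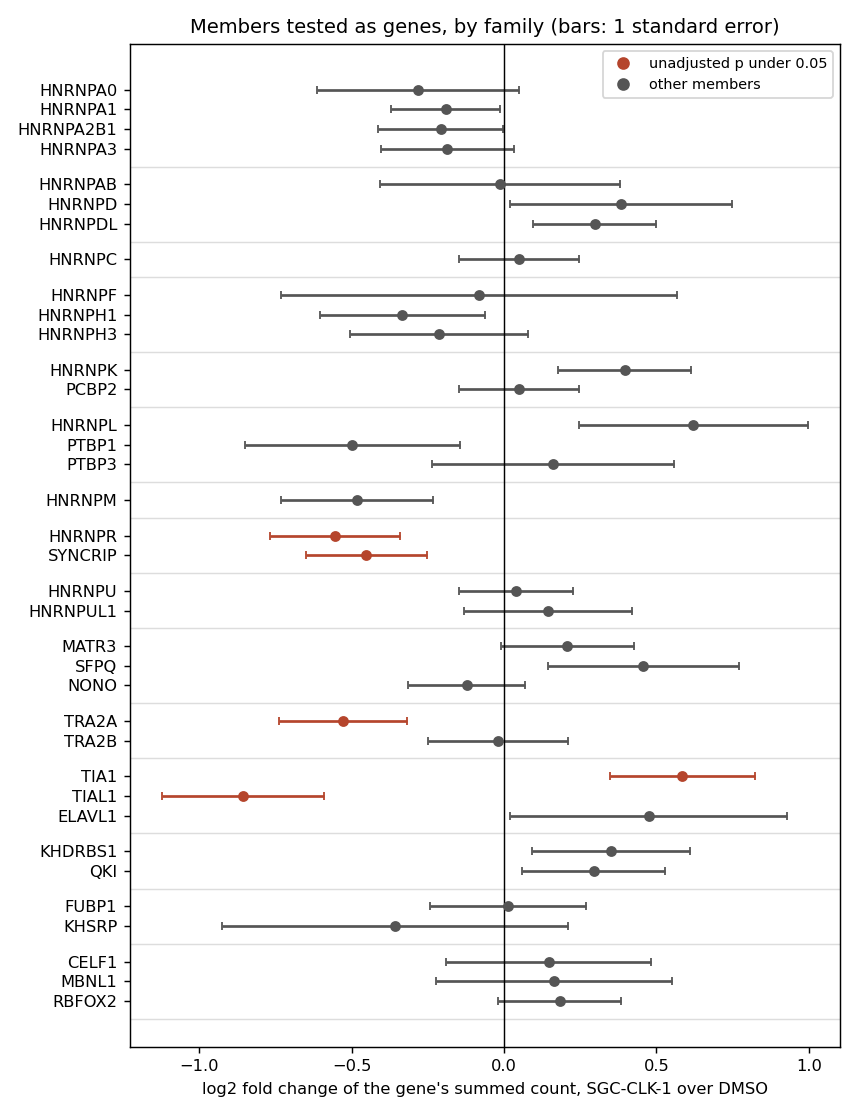
The log2 fold change of each tested member's summed count, SGC-CLK-1 over DMSO (x axis), by family (blocks), with 1 standard error as the bar, from 3 libraries in each group. Red points mark the 5 members with an unadjusted p under 0.05, none of which passed after adjustment. TIAL1 lies farthest to the left at -0.86, while TIA1 lies at 0.59.

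TIAL1 had the smallest p of the members, and its close relative TIA1, the fourth by p, had values in the opposite direction. TIA1 and TIAL1 bind U-rich sequence downstream of 5' splice sites and promote the use of weak sites, and both also gather in stress granules. TIAL1 was at 95.8, 139 and 98.7 CPM with SGC-CLK-1 and at 173, 171 and 259 CPM with DMSO. Every SGC-CLK-1 library was below every DMSO library. The means were 111 ± 24.2 and 201 ± 50.5 CPM (SD, n = 3 each), and the log2 fold change was -0.86 (SE 0.26, edgeR adjusted p = 0.145). It was -0.65 without DMSO replicate 3, and the gene passed only when ENST00000369093, its transcript with the highest count, stood for it alone (adjusted p = 0.024). TIA1 was at 214, 265 and 281 CPM with SGC-CLK-1 and at 192, 127 and 188 CPM with DMSO. All SGC-CLK-1 libraries were above all DMSO libraries here, with a log2 fold change of 0.59 (SE 0.24, edgeR adjusted p = 0.286). ELAVL1, which binds AU-rich elements and stabilizes mRNA, had a log2 fold change of 0.47 (SE 0.45), which ran from 0.29 without DMSO replicate 3 to 0.71 without DMSO replicate 2.

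HNRNPR and SYNCRIP (hnRNP Q), which are close relatives with the same arrangement of RNA-binding domains, were both lower in each SGC-CLK-1 library than in each DMSO library. HNRNPR was at 301, 273 and 356 CPM with SGC-CLK-1 and at 369, 448 and 550 CPM with DMSO, a log2 fold change of -0.55 (SE 0.21, edgeR adjusted p = 0.251). SYNCRIP was at 273, 316 and 294 CPM against 362, 388 and 456 CPM, with -0.45 (SE 0.20, edgeR adjusted p = 0.326). TRA2A was at 532, 500 and 501 CPM with SGC-CLK-1 and at 745, 551 and 924 CPM with DMSO. Its groups did not overlap either, and the log2 fold change was -0.53 (SE 0.21, edgeR adjusted p = 0.270), but -0.35 without DMSO replicate 3. Its paralog TRA2B had a log2 fold change of -0.02 (SE 0.23), from -0.14 to 0.11 over the fits without a library.

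Of the other members with values per library, HNRNPDL, a relative of hnRNP D, had groups that did not overlap, with 273, 318 and 278 CPM against 254, 216 and 237 CPM and a log2 fold change of 0.30 (SE 0.20). The remaining 6 had overlapping groups. HNRNPK, a poly(C)-binding protein, was at 1497, 1667 and 1644 CPM with SGC-CLK-1 and at 1323, 1525 and 798 CPM with DMSO. Its log2 fold change of 0.40 (SE 0.22) was 0.16 without DMSO replicate 3, the low library. HNRNPM, which represses and activates exons through GU-rich sites, was at 170, 209 and 226 CPM against 331, 191 and 322 CPM, a log2 fold change of -0.48 (SE 0.25), or -0.29 when its transcript with the highest count stood for it alone. HNRNPL, which binds CA repeats, was at 111, 77.6 and 151 CPM against 74.3, 37.0 and 114 CPM. Its log2 fold change of 0.62 (SE 0.38) ranged from 0.26 without DMSO replicate 2 to 1.03 without DMSO replicate 3. PTBP1, the polypyrimidine tract-binding repressor of exons, was at 70.8, 32.1 and 54.5 CPM against 64.7, 68.2 and 96.9 CPM. Its log2 fold change of -0.50 (SE 0.35) was -0.81 without SGC-CLK-1 replicate 1, -0.27 without SGC-CLK-1 replicate 2 and -0.31 without DMSO replicate 3. SFPQ, a protein of nuclear paraspeckles, was at 73.7, 61.6 and 88.3 CPM against 62.3, 46.7 and 54.2 CPM, a log2 fold change of 0.46 (SE 0.31), or 0.15 with coding transcripts only. KHDRBS1 (Sam68), a signal-dependent regulator of alternative exons, was at 152, 102 and 145 CPM against 95.9, 105 and 114 CPM, a log2 fold change of 0.35 (SE 0.26), or 0.23 without SGC-CLK-1 replicate 1. None of these 7 genes passed the test, with edgeR adjusted p between 0.414 and 0.600.

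**Figure D2:**
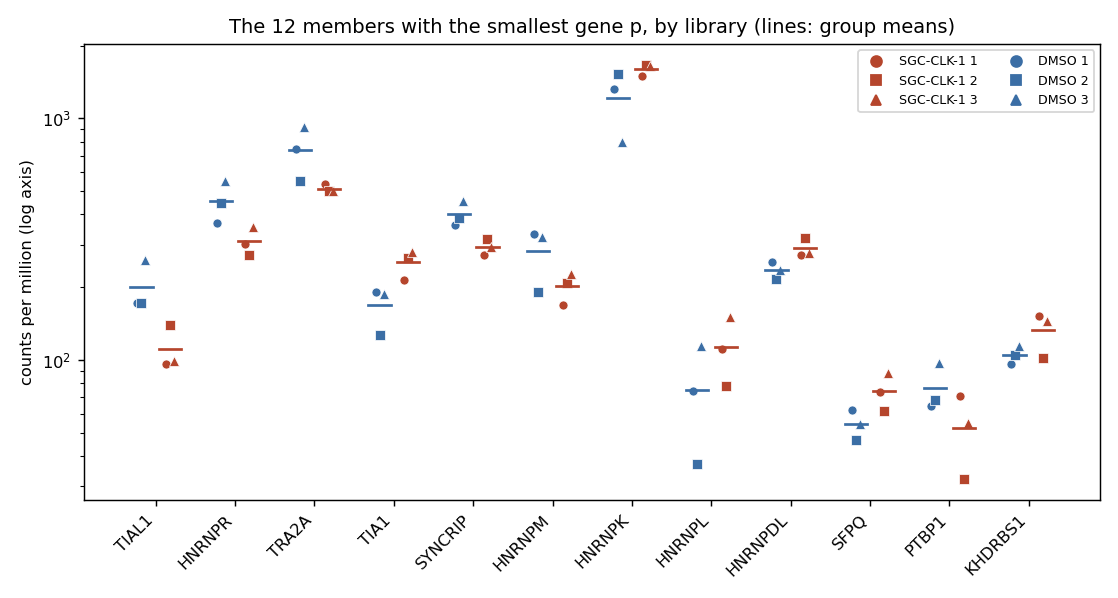
CPM (log axis) of the 12 members with the smallest p in the test of gene sums, with 1 point for each library and lines at the group means of SGC-CLK-1 (red) and DMSO (blue). The groups do not overlap for TIAL1, HNRNPR, TRA2A, TIA1, SYNCRIP and HNRNPDL, and DMSO replicate 3 (blue triangle) is the lowest library for HNRNPK at 798.

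The 4 core A/B proteins, which compact introns and repress splice sites, had log2 fold changes below 0, at -0.28 for HNRNPA0, -0.21 for HNRNPA2B1 and -0.19 for both HNRNPA1 and HNRNPA3, and none passed the test. Without DMSO replicate 1, HNRNPA0 was at -0.06 and both HNRNPA2B1 and HNRNPA3 were at -0.05. Without DMSO replicate 2 HNRNPA0 was at -0.54, without DMSO replicate 3 HNRNPA2B1 was at -0.36 and HNRNPA3 at -0.34, and without SGC-CLK-1 replicate 2 HNRNPA1 was at -0.32. In the F and H family, which binds G runs, HNRNPH3 was at -0.21 (SE 0.29), or between -0.47 without SGC-CLK-1 replicate 1 and -0.02 without SGC-CLK-1 replicate 2. HNRNPH1 was at 997, 1269 and 1122 CPM with SGC-CLK-1 and at 1419, 789 and 2070 CPM with DMSO. Its log2 fold change of -0.33 (SE 0.27) turned to 0.03 without DMSO replicate 3, the highest library, and was -0.64 without DMSO replicate 2, the lowest. HNRNPF had 28 and 64 counts in DMSO replicates 1 and 2 and 0 in DMSO replicate 3, which allows up to 8.55 CPM there when 3 counts are taken as the upper limit for a count of 0. With SGC-CLK-1 it had 48, 28 and 16 counts. Its log2 fold change of -0.08 (SE 0.65) was 0.83 without DMSO replicate 2 and -0.62 without DMSO replicate 3. HNRNPC, which binds U tracts and guards against exons arising from Alu elements, had a log2 fold change of 0.05 (SE 0.20) and HNRNPU, a scaffold protein of the nucleus, 0.04 (SE 0.19). Over the fits without a library they ran from -0.10 to 0.17 and from -0.07 to 0.17. CELF1, MBNL1 and RBFOX2, regulators of exons that switch during development, were at 0.15, 0.16 and 0.18. CELF1 ran from -0.10 without DMSO replicate 2 to 0.50 without DMSO replicate 1, MBNL1 from -0.08 without SGC-CLK-1 replicate 3 to 0.40 without SGC-CLK-1 replicate 1, and RBFOX2 was at 0.04 without the latter. KHSRP, which binds AU-rich RNA, was at -0.36 (SE 0.57), from -0.79 without SGC-CLK-1 replicate 2 to 0.05 without DMSO replicate 1. HNRNPD, which promotes the decay of such mRNA, was at 0.38 (SE 0.36), from 0.10 without DMSO replicate 1 to 0.91 without DMSO replicate 3. QKI, a STAR family protein that regulates exons and circular RNAs, was at 0.29 (SE 0.23), from 0.10 without SGC-CLK-1 replicate 3 to 0.45 without SGC-CLK-1 replicate 1. MATR3, a nuclear matrix protein that regulates exons, was at 0.21 (SE 0.22), from 0.10 to 0.38 without the same libraries. A further 5 members were NONO at -0.12, HNRNPAB at -0.01, FUBP1 at 0.01, HNRNPUL1 at 0.14 and PTBP3, a paralog of PTBP1, at 0.16, and each of these changed sign when some library was left out. FUBP1 was at 0.36 without DMSO replicate 3. The gene sum of PCBP2 is given with its transcripts.

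A further 5 members had too few counts for the test. MBNL2, a muscleblind protein, had 9, 6 and 4 counts in the SGC-CLK-1 libraries and 0 in all 3 DMSO libraries. With 3 counts over the DMSO group as the upper limit, the pooled SGC-CLK-1 level of 13.2 CPM was 5.65 times that limit. This ratio allows no error on the 19 counts with SGC-CLK-1, so it is not a lower bound. The counts were summed over 5 transcripts, on which a molecule could be counted more than once. PCBP1, the intronless relative of PCBP2, had 8, 3 and 5 counts with SGC-CLK-1 and 14, 14 and 8 with DMSO. In CPM its groups did not overlap, at 10.9 ± 2.59 against 27.9 ± 5.40 (SD, n = 3 each). For both genes the exact two-sided permutation test gave p = 0.1, the smallest that 3 libraries against 3 allow. HNRNPH2 had 11, 5 and 3 counts against 1, 1 and 3, HNRNPUL2 had 8, 3 and 0 against 2, 4 and 1, and RALY had 22, 15 and 1 against 6, 4 and 5. The groups of these last 3 genes overlapped in CPM.

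Single transcripts were compared next, because the inhibitor acts on splicing. Of the members' transcripts, 120 were tested, and 2 of them (1.67%) passed an adjusted p of 0.05 in edgeR, against 312 of 7840 transcripts over the whole table (3.98%). Each direction had 1 call, against 1.85% and 2.13% of all transcripts. At an unadjusted p below 0.05 there were 14 member transcripts, or 11.7%, against 18% of all transcripts. Of these 8 were higher (6.67%, against 8.89%) and 6 were lower (5%, against 9.07%). Groups did not overlap for 16, or 13.3%, against 22.8%, with SGC-CLK-1 higher in 10 (8.33%, against 11.5%) and lower in 6 (5%, against 11.3%). The median log2 fold change was -0.02 over the members' transcripts, with 58 above and 62 below 0, and -0.006 over all transcripts.

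The transcript that rose was ENST00000547987 of PCBP2, whose intron boundary is printed above. It had 39, 16 and 12 counts in the SGC-CLK-1 libraries and 5, 9 and 1 in the DMSO libraries. These were 58.6, 44.1 and 32.4 CPM against 11.9, 17.4 and 2.66 CPM, so that the lowest SGC-CLK-1 library was above the highest DMSO library. The log2 fold change was 2.02 (SE 0.43, edgeR adjusted p = 0.0072). Without DMSO replicate 3, which had 1 count, it was 1.62 (adjusted p = 0.034), and without SGC-CLK-1 replicate 1, which had 39, it was 1.73 and no longer passed (adjusted p = 0.079). The other retained-intron transcript, ENST00000547048, had 54, 22 and 18 counts against 19, 14 and 12. Its groups did not overlap in CPM, and its log2 fold change was 0.92 (SE 0.31, edgeR adjusted p = 0.088). The other 4 retained-intron transcripts of PCBP2, too low to be tested and holding neither of these intron stretches, had 30, 9 and 5 counts together with SGC-CLK-1 and 2, 5 and 2 with DMSO. All these counts, and those of TRA2A below, are molecules assigned to annotated transcripts. Whether the molecules held the printed intron bases was not tested.

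The other tested transcripts of PCBP2 had values close to 0. There were 8 coding transcripts and 1 NMD transcript, with log2 fold changes between -0.06 and 0.15. The coding transcript with the most counts, ENST00000447282, had 116, 56 and 55 counts against 67, 71 and 64 and a log2 fold change of 0.05 (SE 0.22). The gene sum of PCBP2 had a log2 fold change of 0.05 (SE 0.20), at 977 ± 173 against 948 ± 148 CPM (SD, n = 3 each), and ran from -0.12 without SGC-CLK-1 replicate 1 to 0.17 without DMSO replicate 3. Retained-intron transcripts took 15.4%, 14.6% and 10.2% of the gene's counts with SGC-CLK-1 and 6.68%, 6.75% and 3.88% with DMSO. Coding transcripts took 78.6%, 79.9% and 80.2% against 86.4%, 86.0% and 88.6%. Neither share overlapped between the groups, while the NMD share was 6.02%, 5.57% and 9.62% against 6.94%, 7.23% and 7.49%, with overlap.

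**Figure D3:**
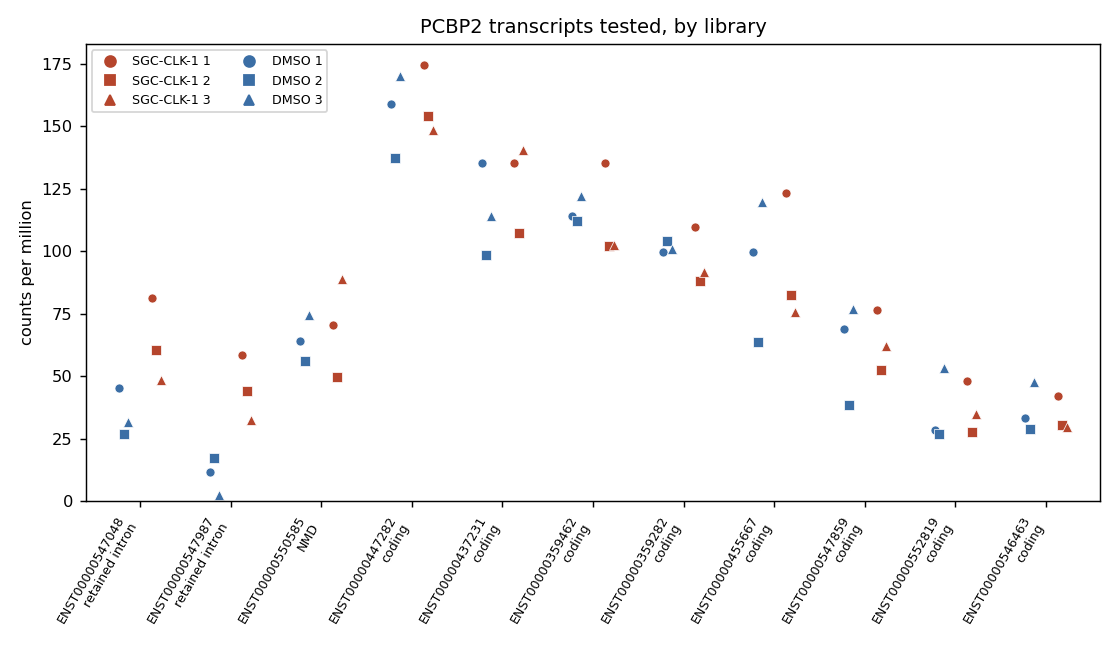
CPM of the 11 tested transcripts of PCBP2 (x axis, with the annotated class), with 1 point for each library of SGC-CLK-1 (red) and DMSO (blue). The groups do not overlap for the 2 retained-intron transcripts on the left, and they overlap for each of the 9 others.

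The change in proportion was tested directly. In the test of transcript usage, which asks whether a transcript changes against the rest of its gene (diffSpliceDGE in edgeR, Simes method), 1 of 24 members passed, PCBP2, against 5 of 1804 genes (0.277%). Its adjusted p was 0.030. At an unadjusted p below 0.05 there were 2 of the 24, PCBP2 and TRA2A, against 1.77% of all genes. ENST00000547987 had a log2 change of 1.31 relative to the gene and ENST00000547048 one of 0.55. This call was lost when SGC-CLK-1 replicate 1, 2 or 3 or DMSO replicate 1 or 3 was left out, and under both other filters on low counts and the gene-level F-test. When counts were summed over classes within a gene, 0 of 16 members passed, against 2 of 1173 genes (0.171%). At an unadjusted p below 0.05 there was 1 of the 16, again PCBP2 (edgeR adjusted p = 0.153), against 1.53% of all genes, and its retained-intron class had a log2 change of 0.88 relative to the gene. The gene-level F-test also gave an adjusted p above 0.05 for PCBP2, at 0.139.

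For TRA2A, the retained-intron transcript whose boundary is printed above had 30, 11 and 15 counts against 12, 19 and 4. These libraries overlapped, and the transcript's log2 fold change was 0.58 (SE 0.37), beside -0.53 for the coding transcript ENST00000297071 and -0.42 for the NMD transcript ENST00000538367. Relative to the gene it had a log2 change of 0.69, and TRA2A did not pass the usage test (adjusted p = 1.000, unadjusted p = 0.049 in edgeR). The share of retained-intron transcripts was 7.96 ± 1.11% against 5.23 ± 2.52% (SD, n = 3 each). MATR3, CELF1 and HNRNPC followed in the usage test, with unadjusted edgeR p between 0.543 and 0.701.

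Retained-intron shares were set side by side for the 15 members with at least 30 retained-intron counts, a limit chosen after the values were seen. The groups did not overlap for 6 of the 15 (40%), against 13.6% of the 1577 genes that met this limit. SGC-CLK-1 was higher in 4 (26.7%, against 6.98%) and lower in 2 (13.3%, against 6.66%). PCBP2, HNRNPH1, HNRNPL and QKI entered the test of class usage and none passed, the retained-intron class of QKI being too low to enter. TIAL1 and HNRNPK did not enter it. Beside PCBP2, the share was higher in TIAL1, at 16.9%, 21.2% and 15.8% with SGC-CLK-1 and 11.1%, 10.2% and 11.0% with DMSO, from 55 counts in all. Its retained-intron counts were 11, 11 and 6 against 8, 9 and 10, while its coding counts were 48, 32 and 28 against 58, 72 and 66. The share was higher in HNRNPH1 as well, at 33.8 ± 1.09% against 31.8 ± 0.61% (SD, n = 3 each), and in HNRNPK at 1.28%, 0.96% and 1.42% against 0.91%, 0.64% and 0.71%, from 40 counts. It was lower in HNRNPL, at 29.4 ± 2.87% against 45.4 ± 6.97%, from 8 to 21 counts a library, and in QKI at 4.08 ± 1.24% against 6.51 ± 0.73% (SD, n = 3 each). The retained-intron counts of HNRNPL were 21, 8 and 19 against 12, 10 and 18, while its coding counts were 48, 16 and 29 against 16, 8 and 17. In MATR3 the shares overlapped, at 18.6%, 15.6% and 14.7% against 24.6%, 15.2% and 27.4%. HNRNPU and TRA2B had shares near those of their controls, with 48.0 ± 2.97% against 46.8 ± 0.46% and 48.5 ± 3.51% against 51.8 ± 1.05%. HNRNPH3 was tested for its coding and other classes, and its coding share was 61.3 ± 9.84% against 66.2 ± 6.46%. Over all members together, retained-intron transcripts took 11.2% to 11.8% of the counts in the SGC-CLK-1 libraries and 10.3% to 12.2% in the DMSO libraries, and NMD transcripts took 6.36% to 7.74% and 6.52% to 8.25%.

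**Figure D4:**
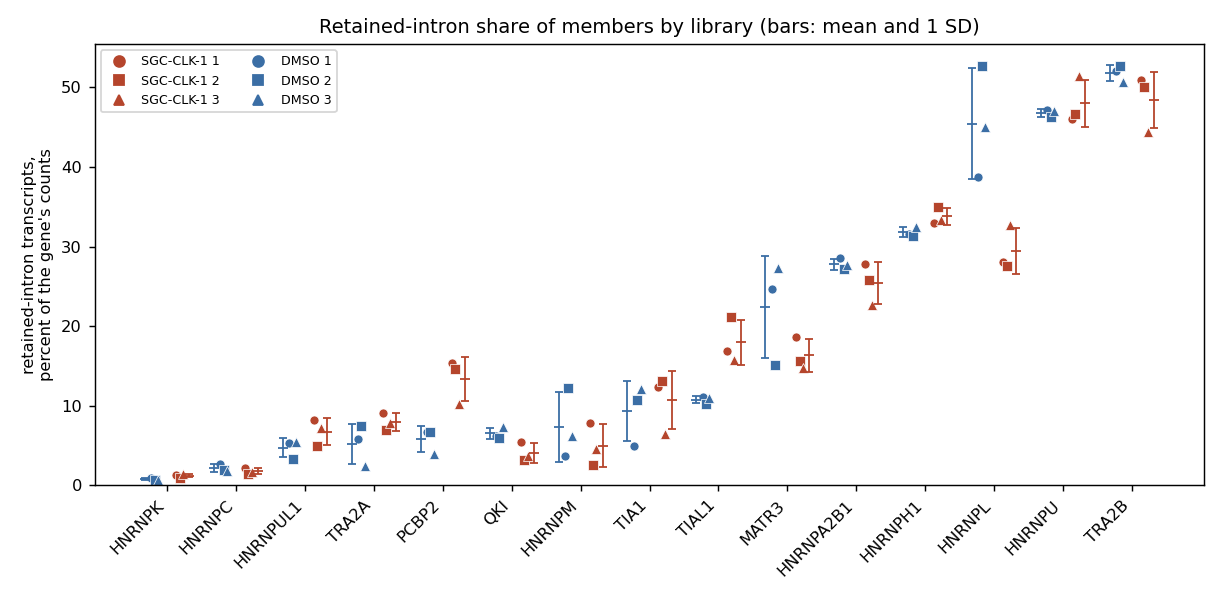
Retained-intron transcripts as a percent of the gene's counts (y axis) for the 15 members with at least 30 such counts, with 1 point for each library and bars for the mean and 1 SD of SGC-CLK-1 (red) and DMSO (blue). The share is higher in every SGC-CLK-1 library for PCBP2, TIAL1, HNRNPH1 and HNRNPK, lower in every SGC-CLK-1 library for HNRNPL and QKI, and overlaps for the other 9.

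The transcript that fell was ENST00000369093 of TIAL1, a coding transcript on chromosome 10, minus strand, at 119571802 to 119596495 (12 exons, 5072 bases). It had 46, 30 and 26 counts with SGC-CLK-1 and 51, 67 and 59 with DMSO, which were 69.2, 82.7 and 70.2 CPM against 121, 129 and 157 CPM. The highest SGC-CLK-1 library lay below the lowest DMSO library. The log2 fold change was -0.88 (SE 0.24, edgeR adjusted p = 0.032). It lay between -0.97 and -0.79 under every alternative tried, but passed in 5 of 12. It no longer passed in the DESeq2 Wald test (adjusted p = 0.119), with no filter on low counts (0.126), or without SGC-CLK-1 replicate 1 (0.106), 2 (0.116) or 3 (0.114) or DMSO replicate 1 (0.073) or 3 (0.084). This transcript held 68.7% of the gene's counts.

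The next transcripts by p belonged to genes already named. ENST00000374612 of HNRNPR had 59, 32 and 36 counts against 52, 73 and 57 and a log2 fold change of -0.60 (SE 0.23), and ENST00000302271 had 44, 21 and 28 against 35, 51 and 49 and -0.63 (SE 0.26). ENST00000360384 of HNRNPK had 209, 123 and 123 counts against 113, 143 and 55. Its log2 fold change of 0.50 (SE 0.22) was 0.24 without DMSO replicate 3. For TIA1, ENST00000282574 had 32, 24 and 29 counts against 21, 15 and 15 and a log2 fold change of 0.67 (SE 0.31), while ENST00000433529 had 38, 26 and 31 against 24, 18 and 17 and 0.62 (SE 0.29). For TRA2A, ENST00000297071 had 66, 40 and 44 counts against 69, 55 and 77 and -0.53 (SE 0.25), and ENST00000621813 had 72, 43 and 44 against 70, 61 and 78 and -0.50 (SE 0.24). Without DMSO replicate 3 both of these were at -0.33. None of these 7 transcripts passed, with edgeR adjusted p between 0.146 and 0.263.

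Transcripts of 1 gene were not separate measurements. Secondary alignments had been kept in the mapping, so that a molecule could be counted on several transcripts and more than once in a gene sum. Among 22 members whose 2 transcripts with the highest counts held at least 200 counts together, these 2 counts differed by less than 5% of their sum, added over the 6 libraries, in 11. In QKI, ENST00000361752 had 128, 92, 115, 55, 108 and 78 counts, with the treated libraries first, and ENST00000361758, an NMD transcript, had 127, 91, 115, 55, 108 and 79. The share of the NMD class in QKI, 46.7 ± 0.60% against 44.5 ± 1.76% (SD, n = 3 each), thus came from counts equal to those of the coding transcript to within 1 count a library. TIAL1 was different, with a summed difference of 76.0% between its first transcript and the next. HNRNPA1 has a pseudogene, HNRNPA1P54, which was itself given 264, 169 and 191 counts with SGC-CLK-1 and 196, 232 and 124 with DMSO, so counts of HNRNPA1 are uncertain.

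**Figure D5:**
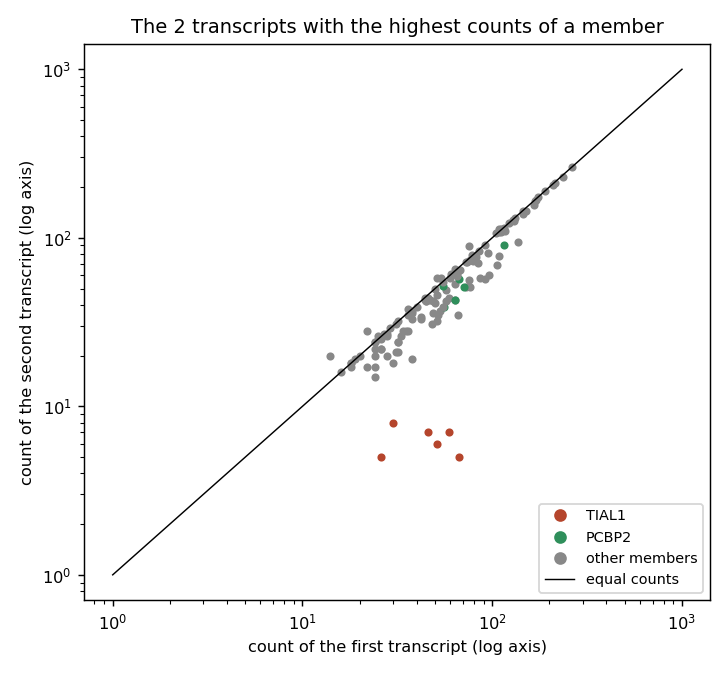
Counts of the transcript with the highest mean count (x axis, log) against those of the next (y axis, log) for 22 members, with 1 point for each library. Points on the line have equal counts, and the points of TIAL1 (red) lie far below it while those of PCBP2 (green) lie near it.

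The SR proteins with their kinases and other splicing regulators were set beside the members. Of 18 SR proteins and kinases, 15 were tested, 6 were above and 9 below 0, and none passed in edgeR. At an unadjusted p below 0.05, 1 was higher and 4 were lower, against 6.89% and 6.95% of all genes, and the median log2 fold change was -0.22. CLK1, a kinase of SR proteins, was at 102, 58.9 and 143 CPM against 185, 253 and 259 CPM, a log2 fold change of -1.19 (SE 0.29, adjusted p = 0.087). SRSF11 had a log2 fold change of -0.89 (SE 0.22, adjusted p = 0.087) and SRSF1 one of 0.57 (SE 0.19, adjusted p = 0.189). The groups of all 3 did not overlap, nor did those of SRSF3 (log2 fold change -0.48) and CLK4 (-0.62). Over all genes, groups did not overlap for 19.8%. Of 39 other splicing regulators, 34 had counts and 27 were tested, with 18 above and 9 below 0, none called and a median log2 fold change of 0.14. At an unadjusted p below 0.05, 2 were higher and 1 was lower, against the same shares of all genes. RBM25, which promotes the use of 5' splice sites, had a log2 fold change of -0.88 (SE 0.25, adjusted p = 0.122), with overlapping groups. IGF2BP2, an mRNA-binding protein, had 0.60 (SE 0.26, adjusted p = 0.315), and EWSR1, the gene rearranged in Ewing sarcoma, had 0.56 (SE 0.24, adjusted p = 0.318).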

How the data were processed

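Total RNA of RM82 cells was made into UMI-tagged cDNA and sequenced by the authors on the ONT platform. Reads were mapped by the authors to human transcripts of hg38 with minimap2 (version 2.22 in the submitters' processing notes), secondary alignments included, UMIs were deduplicated, and the deposited values are raw counts of UMIs per transcript, without normalization. UMI-tools is among the tools listed for the upstream processing, and the paper describes counting both with it and with its own homotrimer correction of UMIs. Which of these made the deposited counts is not given in the sources used here. Files were joined by transcript identifier, with 0 where a library listed none, and 86362 of 93530 identifiers (92.3%) were matched without version to GENCODE release 44 (GRCh38). MATR3 was summed over its 2 gene identifiers. Of the 491 member transcripts, 437 had the same version in both.

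The test was edgeR's quasi-likelihood F-test (version 4.0.16 under R 4.3.3), run on all genes or transcripts after filterByExpr (count of at least 10, total of at least 15) and TMM scaling of the total counts, with Benjamini-Hochberg adjusted p under 0.05. CPM were scaled by TMM, except summed marker levels, which were scaled by the total alone. Exact permutation tests used scipy 1.17.1. The functions were tested on simulated data with independent counts and changes larger than any tested member had as a gene. That test does not show how often changes of the members' size would be called. Totals of 362826 to 666702 limit the precision, and limits taken from 3 counts cover counting error only.

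The rule gave values per library to the 12 members and 10 member transcripts with the smallest p (all that passed among them) and to those leading the usage tests. Other members are named to account for all 41, and values per library outside the rule (such as HNRNPH1, HNRNPF, QKI, HNRNPA1P54, CLK1 and the untested members) were chosen after they were seen. The members and lists were chosen with earlier results of these data known. DESeq2 1.42.0, other scalings, filters and sums, leaving out each library and a replicate block were the alternatives. A table of PCR cycle libraries, whose 4 columns could not be paired with samples, and the reports on common identifiers were not used.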

Additional observations from a re-analysis of the deposited data

How the results depend on the processing

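The members called as genes stayed at 0 under each alternative except 2, with 1 call each: MBNL2 with no filter on low counts, and TIAL1 when the transcript with the highest mean count stood for its gene. Over all genes, the 15 calls became 24 with library size only, 176 with no filter, 64 with at least 10 counts in every library, 36 with the replicate block, 112 in DESeq2, 0 with coding transcripts only (724 at an unadjusted p below 0.05) and 147 with that single transcript. Leaving out a library gave 1 to 30. Over all transcripts, the 312 calls became 162 with no filter, 169 with at least 10 counts in every library, 501 with the replicate block and 98 in DESeq2, and 86 to 355 when a library was left out. Member transcripts called became 1 with no filter and in DESeq2 (PCBP2 ENST00000547987 in both), and 1 with at least 10 counts in every library (TIAL1 ENST00000369093), which removes the PCBP2 transcript. They were 0 without SGC-CLK-1 replicate 1 and up to 3 without DMSO replicate 2. The 5 usage calls became 2 with no filter and 1 with at least 10 counts in every library, and 1 to 4 without a library. The 2 class usage calls became 1 with at least 10 counts in every library and 5 in the F-test, and 1 to 2 without a library. Apart from the stated filters, the cause was not tested. Of 283 alternative fold changes of the 12 members and 10 member transcripts with the smallest p, 274 kept their direction and side of the threshold. There were 0 reversals, while 14 of the 36 tested members changed sign when some library was left out. Most of the 12 members and 10 transcripts had not passed to begin with, and staying uncalled counted as kept. Of the 2 called, PCBP2 ENST00000547987 stayed called in 10 of 11 alternatives and TIAL1 ENST00000369093 in 5 of 12. Of 117 alternative p-values of usage, which carry no direction, 109 kept their side. The 8 that did not were all of PCBP2, the 1 member called for usage, whose call was kept in 4 of 12. The median over all genes moved to 0.073 with library size only.

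Deviations of same-numbered libraries from their group means had weak correlations, at 0.063, 0.024 and 0.031. Pairs with different numbers lay between -0.074 and 0.036. SGC-CLK-1 replicates 1 and 2 each correlated best with the DMSO library of the same number, and SGC-CLK-1 replicate 3 with DMSO replicate 2 (0.036). By their labels, same-numbered libraries share only a number. The replicate block gave 36 genes, 501 transcripts, 4 usage genes and 2 class usage genes, of which 0 members as genes and the same 2 member transcripts. At these depths the members' standard errors had a median of 0.25 on the log2 scale.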
